A study of Mus musculus with 20 samples.

Results

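The genes described here are 10 regulators of fat cell formation and genes of lipid handling, taken by name from the gene count table of mouse cardiac fibroblasts: Pparg, Cebpa, Cebpb, Cebpd, Lpl, Angptl4, Cd36, Fabp4, Fabp5 and Plin2. All 10 were found among 55414 genes in the table, and all 10 were among the 15624 genes with enough counts to be tested. Bulk RNA was sequenced from 20 primary cultures in 5 groups of 4. The comparisons asked what loss or excess of Hyal2, which encodes a hyaluronan-degrading enzyme, and what TGFB (transforming growth factor beta) did to these cultures. Cre_TGFB cultures received an adenovirus carrying Cre recombinase and then TGFB. GFP_TGFB cultures received the control adenovirus carrying GFP and then TGFB. Hyal2 cultures received an adenovirus that overexpresses Hyal2, Cre cultures the Cre adenovirus and GFP cultures the control adenovirus, all 3 without TGFB. The Cre and Cre_TGFB cultures are labelled as a knockout of exon 2 of Hyal2. The treatment protocol names Hyal2fl/fl mice, in which Cre can delete part of Hyal2, as the source of all cells, while the genotype label reads Wild Type C57BL/6J. Cells were at passage 2, were starved of serum for 24 h, met virus for 5 h and were collected after 48 h in new medium. That medium held bFGF and TGFB at 20 ng/mL, in a wording that leaves unclear whether the groups without TGFB received bFGF. Replicate numbers 1 and 2 were female and 3 and 4 male. The library names share a prefix per number, and each number is taken here as 1 cell isolate split over all 5 groups. Hearts were plated 1 to a flask, and the labels do not say how many animals made up an isolate.

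Fat cell formation is driven by a cascade of transcription factors. C/EBP beta and C/EBP delta act early and switch on C/EBP alpha and the nuclear receptor PPAR gamma, which keep each other active and turn on genes of lipid uptake and storage, including Lpl, Cd36, Fabp4 and Plin2. Fibroblasts express several of these genes at low levels without becoming fat cells, and TGFB, which turns fibroblasts into contractile, matrix-secreting myofibroblasts, is known as an inhibitor of fat cell formation in culture.

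Stretches of 250 bases upstream of annotated starts were available for 5 of the 10 genes, in 7 windows, from RefSeq on the GRCm38.p6 build. The windows of Plin2 and Cd36 are shown because these genes changed in opposite directions with TGFB, and the most downstream of 3 windows of Pparg because it held both C/EBP and SMAD letters. Capitals mark AGGTCA, the core recognised by nuclear receptors, TTGCNNAA, a core recognised by C/EBP proteins, and CAGAC, the short box recognised by SMAD proteins, on either strand, and no marked match overlaps another. The windows are Plin2 at chr4:86670060-86670309 on the minus strand, Cd36 at chr5:17835897-17836146 on the minus strand, and Pparg at chr6:115421816-115422065 on the plus strand.
Plin2: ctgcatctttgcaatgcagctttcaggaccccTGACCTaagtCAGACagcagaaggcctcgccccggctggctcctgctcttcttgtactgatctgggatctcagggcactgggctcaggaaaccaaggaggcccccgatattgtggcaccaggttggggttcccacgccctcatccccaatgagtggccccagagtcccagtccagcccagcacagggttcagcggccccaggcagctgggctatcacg
Cd36: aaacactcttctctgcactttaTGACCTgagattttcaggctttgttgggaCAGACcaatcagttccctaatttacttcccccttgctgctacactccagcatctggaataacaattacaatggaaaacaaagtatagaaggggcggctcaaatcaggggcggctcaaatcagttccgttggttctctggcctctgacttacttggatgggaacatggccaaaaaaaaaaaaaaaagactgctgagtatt
Pparg: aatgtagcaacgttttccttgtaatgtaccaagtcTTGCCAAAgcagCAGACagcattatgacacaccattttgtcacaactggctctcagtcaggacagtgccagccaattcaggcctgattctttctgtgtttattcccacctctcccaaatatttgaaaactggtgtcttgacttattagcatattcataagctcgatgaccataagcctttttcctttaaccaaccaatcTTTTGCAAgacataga
Plin2 and Cd36 each held 1 AGGTCA and 1 CAGAC, and Pparg held 2 TTGCNNAA and 1 CAGAC. Of 32851 windows of the same length, 14% held AGGTCA, 9.56% held TTGCNNAA and 42.2% held CAGAC. The direct repeat of AGGTCA spaced by 1 base of any kind, which PPAR proteins bind with their RXR partner, was in 0.0335% of all windows and the SMAD palindrome GTCTAGAC in 0.167%, and none of the 7 held either. A match of letters is a description of the window and is not a bound site.

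Library totals lay between 38621523 and 104779845 counts. Levels are given in CPM, a gene's share of its library's counts, with libraries scaled by the trimmed mean of M values (TMM). Hyal2 stood at 399 to 1419 CPM in Hyal2 cultures, at 5.37 to 9.14 CPM in Cre_TGFB and 7.62 to 13.5 CPM in Cre cultures, and at 33.4 to 41.1 CPM in GFP_TGFB and 36.6 to 44.5 CPM in GFP cultures, each group where its label puts it. All 12 listed fibroblast markers had counts in every library. In cultures with the control virus, 9 of them fell and 1 rose with TGFB, against 28.6% and 26.6% of all genes tested. Their summed level was 50668 to 60323 CPM in GFP_TGFB and 54278 to 77546 CPM in GFP cultures. Of 9 fat cell markers, Adipoq, Plin1, Cidec, Lep, Retn, Cfd and Adig had no more than 16 counts in any library and were at 0 in 4 to 19 of the 20 libraries. The other 2, Adrb3 and Slc2a4, had counts in every library, with up to 287 counts (3.60 CPM) for Adrb3 and 45 counts (0.46 CPM) for Slc2a4. The summed level of all 9 was 1.45 to 4.77 CPM. The 11 listed cardiomyocyte markers summed to 1.22 to 4.69 CPM, and of the 2 with enough counts to test, 1 fell with TGFB in cultures with the control virus. Myh6, Nppa and Pln were at 0 in 19 libraries each, while Tnnt2 (up to 305 counts, 3.63 CPM) and Tnni3 (up to 104 counts, 1.35 CPM) had counts in all 20.

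TGFB changed 8 of the 10 genes in cultures with the control virus, and most of them fell. Transcripts of the early adipogenic factors Cebpd and Cebpb, of the lipase Lpl and of the fatty acid carriers Cd36, Fabp4 and Fabp5 were lower in GFP_TGFB cultures than in GFP cultures, and Lpl fell most, by 2.33 to 3.55 on the log2 scale within isolates. Plin2, a coat protein of lipid droplets, and Angptl4, a secreted inhibitor of lipoprotein lipase, were higher. Pparg and Cebpa did not pass the test. A change is called where the p of edgeR's quasi-likelihood test, adjusted after Benjamini and Hochberg across the whole table, was under 0.05. TGFB also changed 55.3% of all genes tested, with 26.6% higher and 28.6% lower, and 18.9% changed at least 2-fold, against 6 of these 10. The groups did not overlap for 7 of the 10 genes and for 50.2% of all genes. The median log2 fold change of the 10 was -1.04, against -0.02 over all genes.

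**Figure D1:**
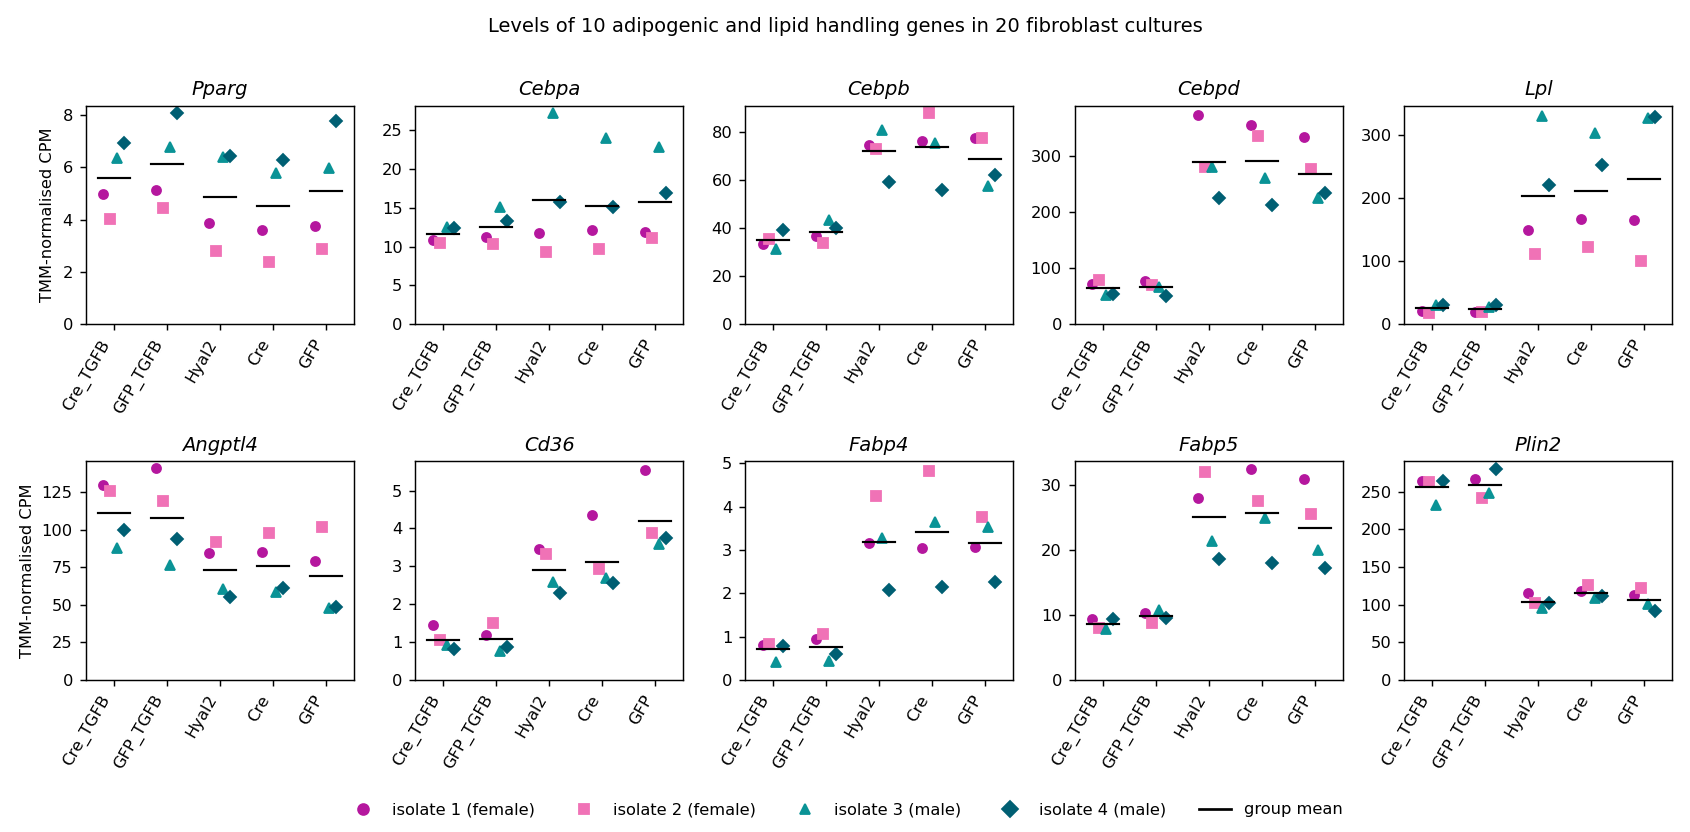
Level of each of the 10 genes in 20 cultures, in TMM-normalised CPM on a linear axis from 0 with its own range per gene. Points are libraries, shaped by isolate, and lines are means of 4. Cebpb, Cebpd, Lpl, Cd36, Fabp4 and Fabp5 lie lower and Plin2 lies higher in both TGFB groups than in all 3 groups without TGFB, and the isolates of Pparg and Lpl stay apart.

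Cebpd (ENSMUSG00000071637), an early factor of the cascade, stood at 77.9, 70.8, 65.8 and 50.7 CPM in GFP_TGFB isolates 1 to 4 and at 334, 276, 225 and 233 CPM in GFP isolates 1 to 4. Every TGFB-treated culture lay far below every GFP culture, and isolate 1 was the highest in both groups. Mean levels were 66.3 ± 11.5 CPM in GFP_TGFB and 266.9 ± 49.9 CPM in GFP cultures (SD, n = 4 each), a log2 fold change of -2.01 (edgeR adjusted p = 6.75e-08, SE 0.20). Cebpb (ENSMUSG00000056501), its partner early factor, stood at 36.8, 33.8, 43.3 and 40.04 CPM in GFP_TGFB cultures and at 77.5, 77.4, 57.4 and 62.3 CPM in GFP cultures. The groups did not overlap, and the female isolates, which were the highest without TGFB, were the lowest with it. Its log2 fold change was -0.84 (edgeR adjusted p = 2.53e-05, SE 0.13).

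Cebpa (ENSMUSG00000034957), which sustains the fat cell programme, stood at 11.2, 10.3, 15.1 and 13.3 CPM in GFP_TGFB cultures and at 11.9, 11.1, 22.8 and 16.9 CPM in GFP cultures. All 4 isolates were lower with TGFB, but the ranges overlapped and isolate 3 moved most. Its log2 fold change was -0.33 (edgeR adjusted p = 0.371, SE 0.30). Pparg (ENSMUSG00000000440), the nuclear receptor at the centre of the programme, stood at 5.15, 4.45, 6.79 and 8.06 CPM in GFP_TGFB cultures and at 3.75, 2.87, 5.99 and 7.77 CPM in GFP cultures. Every isolate was higher with TGFB, by 0.05 to 0.63 on the log2 scale, and the spread between isolates was wider than that. The log2 fold change of Pparg was 0.27 (edgeR adjusted p = 0.529, SE 0.34) across isolates, and 0.32 with the isolate as a block (adjusted p = 0.0205), so Pparg was called only when each isolate was compared with itself. The block called 9 of the 10 genes, against 61.9% of all genes, and left Cebpa uncalled (adjusted p = 0.107).

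Lpl (ENSMUSG00000015568), which splits triglyceride of circulating lipoproteins into fatty acids, stood at 20.2, 19.9, 27.9 and 30.3 CPM in GFP_TGFB cultures and at 165, 100.1, 327 and 329 CPM in GFP cultures. The groups lay far apart, and in each group the male isolates 3 and 4 were above the female isolates 1 and 2. Lpl had the largest change of the 10 genes, with means of 24.6 ± 5.31 CPM in GFP_TGFB and 230.3 ± 115.9 CPM in GFP cultures (SD, n = 4 each) and a log2 fold change of -3.23 (edgeR adjusted p = 1.49e-06, SE 0.40). Angptl4 (ENSMUSG00000002289), whose protein inactivates that lipase, moved the other way and stood at 141, 119, 76.3 and 94.0 CPM in GFP_TGFB cultures and at 79.0, 102, 47.7 and 48.8 CPM in GFP cultures. All 4 isolates were higher with TGFB, although the ranges overlapped, since GFP isolate 2 exceeded GFP_TGFB isolates 3 and 4. The log2 fold change of Angptl4 was 0.63 (edgeR adjusted p = 0.0368, SE 0.25). That call was lost without isolate 1, 3 or 4, without GFP_TGFB library 1 or 2 and without GFP library 3 or 4 (log2 fold changes 0.48 to 0.62, adjusted p = 0.0687 to 0.164), and the block gave adjusted p = 7.16e-06.

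Cd36 (ENSMUSG00000002944), a membrane receptor that takes up fatty acids, stood at 1.19, 1.497, 0.77 and 0.85 CPM in GFP_TGFB cultures and at 5.53, 3.89, 3.58 and 3.75 CPM in GFP cultures. Each TGFB-treated culture held less than the lowest GFP culture, in which isolate 1 stood above the others. The log2 fold change was -1.94 (edgeR adjusted p = 1.88e-06, SE 0.24). Fabp4 (ENSMUSG00000062515), a fatty acid carrier of the cytosol best known from fat cells and macrophages, stood at 0.95, 1.05, 0.43 and 0.59 CPM in GFP_TGFB cultures and at 3.07, 3.76, 3.54 and 2.27 CPM in GFP cultures. It rested on 17 to 76 counts per GFP_TGFB library, the groups did not overlap, and its log2 fold change was -2.04 (edgeR adjusted p = 1.51e-05, SE 0.31). Fabp5 (ENSMUSG00000027533), a related carrier of wider expression, stood at 10.3, 8.80, 10.7 and 9.60 CPM in GFP_TGFB cultures and at 30.9, 25.6, 20.0 and 17.2 CPM in GFP cultures. The isolates spread widely without TGFB and lay close together with it, without overlap of the groups, and the log2 fold change was -1.25 (edgeR adjusted p = 1.90e-05, SE 0.19).

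Plin2 (ENSMUSG00000028494), which coats lipid droplets in most cell types, stood at 266, 241, 247 and 280.5 CPM in GFP_TGFB cultures and at 112, 121, 101 and 91.5 CPM in GFP cultures. The lowest TGFB-treated culture held far more than the highest GFP culture, and isolates differed little within a group. Mean levels were 258.8 ± 18.03 CPM in GFP_TGFB and 106.6 ± 13.1 CPM in GFP cultures (SD, n = 4 each), a log2 fold change of 1.28 (edgeR adjusted p = 4.13e-10, SE 0.09), the smallest adjusted p of the 10.

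Markers of other cell types moved with TGFB as well. Of 14 tested macrophage and leukocyte markers 7 fell and none rose, against 28.6% of all genes that fell. With the isolate as a block 14 fell, and the block called 61.9% of all genes in either direction. Their summed level over 16 listed genes was 143 to 355 CPM in GFP_TGFB cultures and 251 to 591 CPM in GFP cultures. The T cell gene Cd3e was at 0 in 18 of 20 libraries. Of 13 tested endothelial markers 5 fell (9 with the block) and none rose, and the sum over 14 was 32.2 to 41.5 CPM in GFP_TGFB cultures and 51.6 to 63.0 CPM in GFP cultures. Of 6 tested pericyte markers 1 rose and 2 fell, of 6 mesothelial markers 3 fell, and of 5 Schwann cell markers 2 fell. Cd36, Fabp4, Fabp5 and Lpl are also expressed in macrophages or endothelial cells, and the part of those cells in their fall was not tested. In bulk RNA, fewer cells of a type and less RNA per cell cannot be told apart.

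In cultures that had received Cre, TGFB changed 7 of the 10 genes, against 56.5% of all genes tested, and 9 with the isolate as a block, against 63.6%. Cebpb, Cebpd, Lpl, Cd36, Fabp4 and Fabp5 fell, Plin2 rose, and all 7 changed at least 2-fold, against 19.1% of all genes. The groups did not overlap for these 7 genes, as for 51.2% of all genes, and the median log2 fold change of the 10 was -1.32, against -0.00423 over all genes. Plin2 stood at 264, 263, 232 and 264 CPM in Cre_TGFB cultures and at 118, 125, 109 and 111 CPM in Cre cultures, a log2 fold change of 1.14 (edgeR adjusted p = 1.99e-09, SE 0.08). All treated cultures lay above all untreated ones, and Cre_TGFB isolate 3 lay below its 3 fellows. Lpl stood at 21.5, 17.5, 31.5 and 30.6 CPM in Cre_TGFB cultures and at 168, 122, 303 and 253 CPM in Cre cultures. The male isolates were again the higher ones in both groups, and the log2 fold change was -3.06 (edgeR adjusted p = 2.54e-06, SE 0.40).

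Among the transcription factors, Cebpd stood at 71.6, 79.4, 51.7 and 53.2 CPM in Cre_TGFB cultures and at 354, 334, 261 and 213 CPM in Cre cultures. The groups were far apart, with a log2 fold change of -2.18 (edgeR adjusted p = 2.44e-08, SE 0.20), and Cebpb fell by 1.08 on the log2 scale (adjusted p = 1.25e-06, SE 0.13). Log2 fold changes were -2.29 for Fabp4 (edgeR adjusted p = 3.74e-06, SE 0.31), -1.58 for Fabp5 (adjusted p = 1.28e-06, SE 0.19) and -1.55 for Cd36 (adjusted p = 2.04e-05, SE 0.24). Angptl4 stood at 130.1, 126, 88.1 and 99.5 CPM in Cre_TGFB cultures and at 85.2, 97.7, 58.5 and 61.4 CPM in Cre cultures. It was higher in 4 of 4 isolates, but its log2 fold change of 0.55 (SE 0.25) missed the threshold in edgeR (adjusted p = 0.0659) and passed it with the isolate as a block (0.57, adjusted p = 3.88e-05). It also passed without isolate 2 and without Cre library 2 (log2 fold changes 0.63 and 0.70, adjusted p = 0.0482 and 0.0325). Pparg was higher in 4 of 4 isolates too, with 0.32 (edgeR adjusted p = 0.442, SE 0.34) across isolates and 0.37 (adjusted p = 0.00833) under the block. Cebpa had a log2 fold change of -0.38 (edgeR adjusted p = 0.284, SE 0.30; 0.0746 under the block).

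The remaining values in these groups were as follows. Cebpb stood at 33.5, 35.6, 31.3 and 39.2 CPM in Cre_TGFB cultures and at 76.2, 88.0, 75.3 and 55.8 CPM in Cre cultures. Fabp5 stood at 9.31, 8.05, 7.90 and 9.31 CPM in Cre_TGFB cultures and at 32.4, 27.6, 24.96 and 17.9 CPM in Cre cultures. Both groups of treated cultures were narrow and lay wholly below the untreated ones, among which isolate 4 was the lowest for each gene. Fabp4 stood at 0.81, 0.82, 0.41 and 0.78 CPM in Cre_TGFB cultures and at 3.05, 4.83, 3.64 and 2.15 CPM in Cre cultures. Cd36 stood at 1.45, 1.04, 0.93 and 0.80 CPM in Cre_TGFB cultures and at 4.35, 2.92, 2.68 and 2.55 CPM in Cre cultures. Neither carrier had overlapping groups, and isolate 3 held the lowest Fabp4 level with TGFB. Pparg stood at 4.99, 4.03, 6.35 and 6.92 CPM in Cre_TGFB cultures and at 3.61, 2.37, 5.77 and 6.29 CPM in Cre cultures. Cebpa stood at 10.9, 10.5, 12.5 and 12.4 CPM in Cre_TGFB cultures and at 12.1, 9.66, 23.9 and 15.1 CPM in Cre cultures. For both factors the groups overlapped, and Cebpa was lower with TGFB in every isolate but 2.

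**Figure D2:**
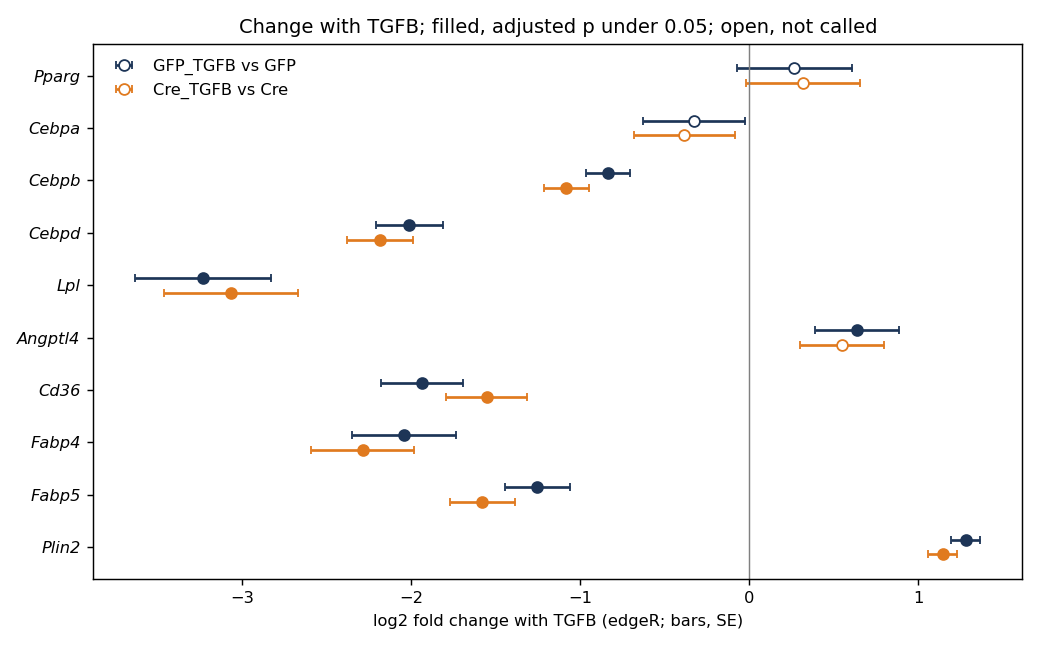
Log2 fold change of each gene with TGFB from edgeR, with bars of 1 SE, in cultures with the control virus (GFP_TGFB against GFP) and with Cre (Cre_TGFB against Cre). Filled points have an adjusted p under 0.05. Lpl lies lowest in both comparisons (-3.23 and -3.06), Plin2 highest (1.28 and 1.14), and Pparg and Cebpa are open in both.

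Whether these responses differed with Cre was tested as an interaction. None of the 10 genes passed, and 0.0% of all 15624 genes did. At an unadjusted p under 0.05, 0 of the 10 and 2.54% of all genes passed, and DESeq2, limma-voom and the block also called 0 of the 10. Estimates of the 10 ran from -0.32 for Fabp5 (SE 0.27) to 0.38 for Cd36 (SE 0.34), and Lpl had 0.16 (SE 0.52), each with an edgeR adjusted p of 1.00.

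Cre alone changed none of the 10 genes in edgeR, against 0.0064% of all genes tested, which is Hyal2 itself (log2 fold change -1.98, adjusted p = 0.0184). No gene of the 10 had an unadjusted p under 0.05, against 4.55% of all genes, DESeq2 and limma-voom also called 0, and the groups overlapped for all 10, against 3.68% of all genes without overlap. Log2 fold changes ran from -0.41 for Cd36 to 0.14 for Fabp5. The others were -0.18 for Pparg, -0.05 for Cebpa, 0.10 for Cebpb, 0.12 for Cebpd, -0.12 for Lpl, 0.13 for Angptl4, 0.11 for Fabp4 and 0.12 for Plin2. With the isolate as a block 0 of the 10 were called, against 0.269% of all genes.

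Within isolates, Cd36 showed the most even difference. It stood at 4.35, 2.92, 2.68 and 2.55 CPM in Cre cultures and at 5.53, 3.89, 3.58 and 3.75 CPM in GFP cultures, lower with Cre in 4 of 4 isolates. The ranges overlapped only through isolate 1, the highest in both groups. The log2 fold change was -0.41 (edgeR adjusted p = 0.926, SE 0.23), and the mean difference within isolates was -0.43 ± 0.09 in log2 CPM (SD, n = 4). With the isolate as a block, edgeR gave Cd36 an unadjusted p of 0.00355 and an adjusted p of 0.250. Pparg was also lower with Cre in 4 of 4 isolates, at -0.17 ± 0.13 in log2 CPM, and Plin2 and Fabp5 were higher in 4 of 4, at 0.13 ± 0.11 and 0.14 ± 0.12. None of these 3 was called with or without the block. Agreement of 4 isolates in direction cannot by itself reach a p under 0.05, and its share over all genes was not counted.

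Overexpression of Hyal2, set against the same GFP libraries, changed none of the 10 genes in edgeR, against 0.0064% of all genes, again Hyal2 alone (log2 fold change 4.50, adjusted p = 1.43e-07). DESeq2, limma-voom and the block also called 0 of the 10, and 1 of them had an unadjusted p under 0.05, against 2.12% of all genes. That gene was Cd36, which stood at 3.45, 3.32, 2.58 and 2.31 CPM in Hyal2 cultures and at 5.53, 3.89, 3.58 and 3.75 CPM in GFP cultures. It was the 1 gene of the 10 whose groups did not overlap, against 1.25% of all genes (0.685% without overlap and lower), and it was lower in 4 of 4 isolates. Its log2 fold change was -0.52 (SE 0.23, unadjusted p = 0.0346, edgeR adjusted p = 1.00; 0.892 under the block). Estimates of the other 9 lay between -0.18 for Lpl and 0.12 for Cebpd. Cd36 was lower with Cre and with Hyal2 virus against 1 shared set of GFP libraries, of which isolate 1 stood highest. Summed macrophage and leukocyte markers were 532, 387, 337 and 223 CPM in Hyal2 cultures, 581, 410.2, 338 and 220.1 CPM in Cre cultures and 591, 406, 339 and 251 CPM in GFP cultures, and their part in the Cd36 values was not tested.

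The other regulators and carriers in Hyal2 cultures lay within or near the GFP range. Pparg stood at 3.89, 2.79, 6.401 and 6.45 CPM, Cebpa at 11.7, 9.24, 27.2 and 15.7 CPM, Cebpb at 74.5, 72.9, 81.0 and 59.4 CPM and Cebpd at 372, 280.5, 279 and 225 CPM in Hyal2 cultures. Cebpa and Cebpb were highest in isolate 3 and Cebpd in isolate 1. Lpl stood at 150.4, 113, 331 and 221 CPM and its inhibitor Angptl4 at 84.4, 91.9, 60.8 and 55.5 CPM in Hyal2 cultures. Fabp4 stood at 3.15, 4.24, 3.29 and 2.08 CPM, Fabp5 at 28.1, 32.1, 21.4 and 18.6 CPM and the droplet protein gene Plin2 at 115, 103, 95.3 and 102 CPM in Hyal2 cultures. Each of these 9 genes overlapped with its GFP values given above.

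Across the 5 groups, mean Lpl was, from low to high, 24.6 CPM in GFP_TGFB, 25.3 CPM in Cre_TGFB, 203.8 CPM in Hyal2, 211.5 CPM in Cre and 230.3 CPM in GFP cultures, and apart from the step between Cre_TGFB and Hyal2 cultures, neighbours differed by less than 1 SD. Mean Plin2 was 258.8 CPM in GFP_TGFB, 255.7 CPM in Cre_TGFB, 103.8 CPM in Hyal2, 115.8 CPM in Cre and 106.6 CPM in GFP cultures, with both TGFB groups far above the rest. Mean Pparg was highest in GFP_TGFB cultures at 6.11 ± 1.63 CPM and lowest in Cre cultures at 4.51 ± 1.84 CPM (SD, n = 4 each).

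**Figure D3:**
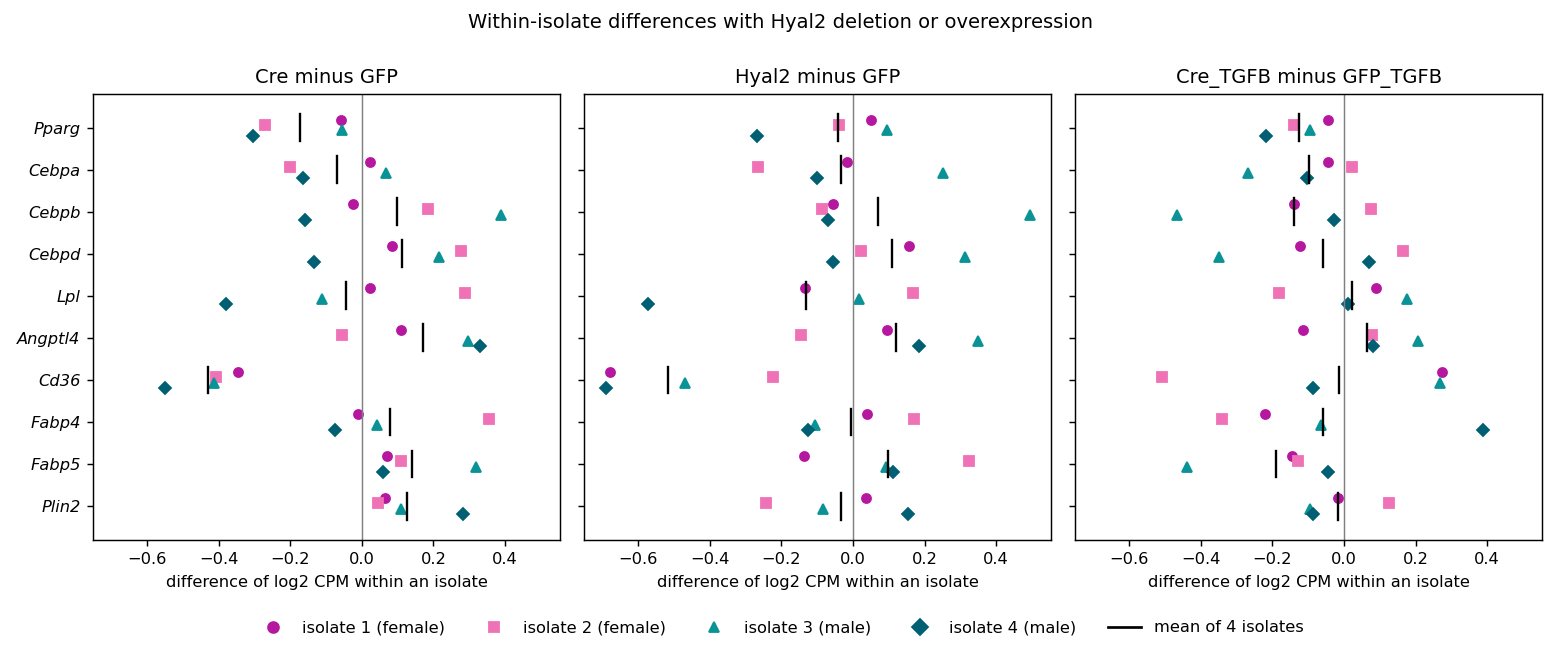
Difference of log2 CPM within each isolate for Cre minus GFP, Hyal2 minus GFP and Cre_TGFB minus GFP_TGFB cultures. Points are isolates and black lines are means of 4. Cd36 lies below 0 in all 4 isolates in the first and second comparison, with means of -0.43 and -0.52, and on both sides of 0 in the third.

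With TGFB present, Cre again changed none of the 10 genes, against 0.0064% of all genes, which is Hyal2 (log2 fold change -2.30, adjusted p = 0.00286). By edgeR, DESeq2, limma-voom and the block 0 of the 10 were called, 0 had an unadjusted p under 0.05, against 1.43% of all genes, and the groups overlapped for all 10, against 1.57% of all genes without overlap. Log2 fold changes ran from -0.19 for Fabp5 (SE 0.19) to 0.04 for Angptl4 (SE 0.25), and Cd36 and Lpl had -0.03 and 0.04. Cd36 was higher with Cre in 2 isolates and lower in 2. Pparg and Fabp5 were lower in Cre_TGFB than in GFP_TGFB cultures in 4 of 4 isolates, at -0.12 ± 0.07 and -0.19 ± 0.17 in log2 CPM (SD, n = 4), without being called.

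Male and female isolates stayed apart in all 5 groups for 6 of the genes. For Pparg, Cebpa and Lpl both male isolates lay above both female isolates in all 5 groups, a pattern shared by 3.21% of all genes. For Cebpd, Cd36 and Angptl4 both male isolates lay below both female isolates in all 5 groups, as for 4.1% of all genes. With 2 isolates of each sex, sex and isolate cannot be told apart. Lpl held 2.10 times as much in male as in female Hyal2 cultures, 1.92 times in Cre cultures and 2.47 times in GFP cultures, but 1.59 times in Cre_TGFB cultures and 1.45 times in GFP_TGFB cultures. In cultures with the control virus, the log2 difference of Lpl with TGFB was -3.55 and -3.44 in male isolates and -3.03 and -2.33 in female isolates, and this gap was not tested. Pparg averaged 6.88 CPM in male and 3.31 CPM in female GFP cultures, a ratio of 2.08. Cebpa averaged 21.4 CPM in male and 10.5 CPM in female Hyal2 cultures, with isolate 3 at 27.2 CPM. Angptl4 averaged 48.2 CPM in male and 90.3 CPM in female GFP cultures. Summed macrophage and leukocyte markers were lower in the male than in the female isolates in every group, for example 339 and 251 CPM in the male and 591 and 406 CPM in the female GFP cultures, and their part in the isolate differences was not tested.

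**Figure D4:**
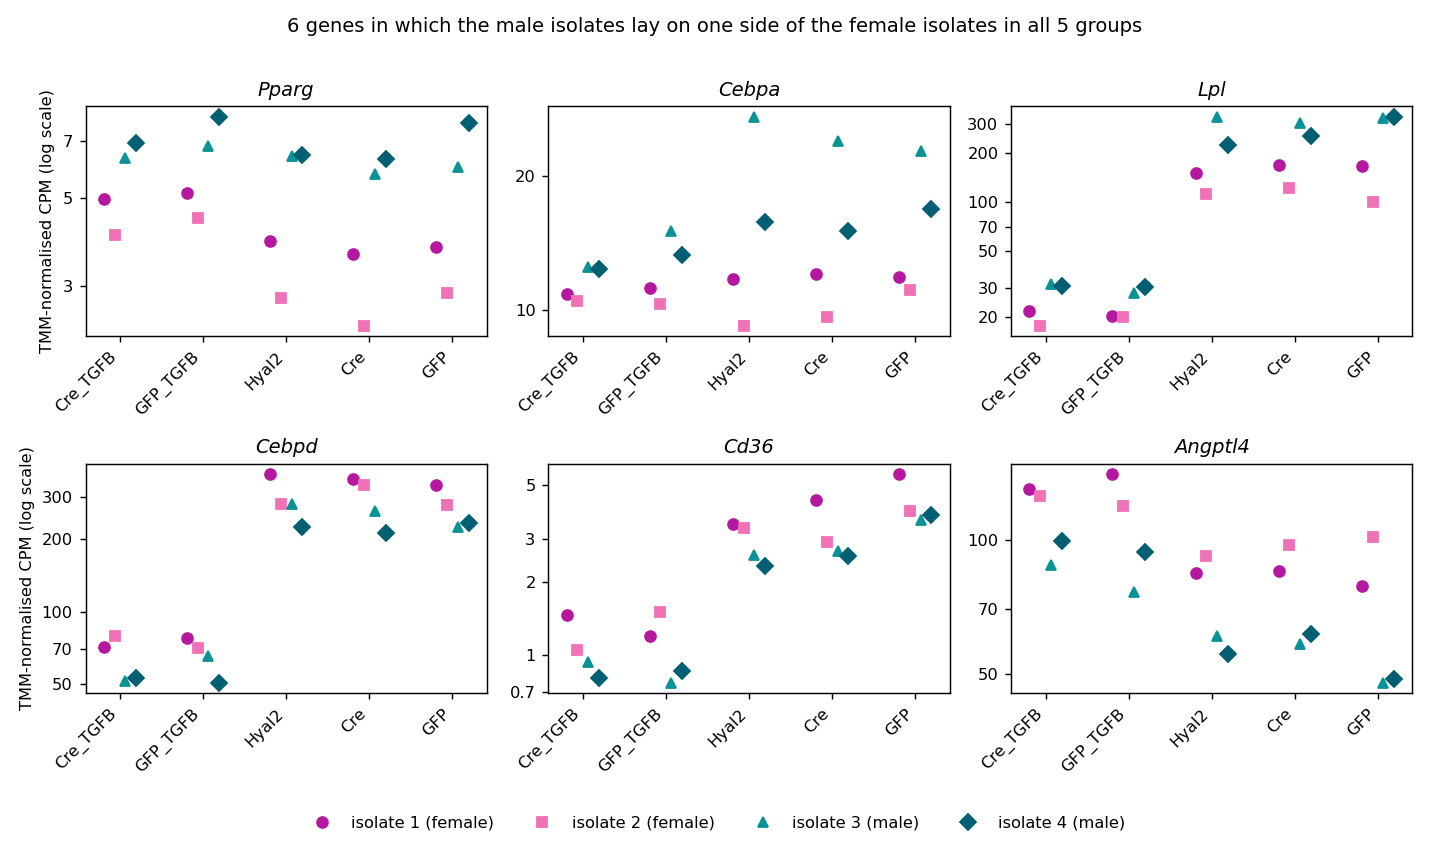
Level of 6 genes by isolate in all 5 groups, in TMM-normalised CPM on a log axis. Points are libraries, with male isolates 3 and 4 in blue-green and female isolates 1 and 2 in purple and pink. In every group the male isolates lie above the female ones for Pparg, Cebpa and Lpl and below them for Cebpd, Cd36 and Angptl4.

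Genes around these 10 were read from 9 lists of the pathway. Over all tested genes, 26.6% rose and 28.6% fell with TGFB in cultures with the control virus. Among 8 tested relatives of the C/EBP and PPAR families, 2 rose and 4 fell with TGFB in cultures with the control virus. Nr1h3, the liver X receptor alpha that senses oxysterols, stood at 1.32 ± 0.13 CPM in GFP_TGFB and 6.51 ± 1.14 CPM in GFP cultures (SD, n = 4 each; log2 fold change -2.30, edgeR adjusted p = 1.84e-09). Rxra, the partner of PPAR gamma on DNA, had -0.63 and Nr1h2 -0.19. Ddit3, which blocks other C/EBP proteins, had 1.00 and Cebpg 0.35. The calls of Nr1h2 and Cebpg were lost in 9 and 7 of 12 fits that left out an isolate or a library, so that 1 relative rose in place of 2 in those 7, and also with library totals alone. Of 21 tested transcription factors that promote fat cell formation, 6 rose and 10 fell. Egr2 stood at 61.7 ± 12.6 CPM in GFP_TGFB and 4.53 ± 2.43 CPM in GFP cultures (log2 fold change 3.74, edgeR adjusted p = 1.21e-07), Bmal1 had 0.85 and Cited2 0.64, while Nfia had -1.53, Zfp467 -1.51 and Stat3 -0.62.

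Of 17 tested inhibitors of fat cell formation, 4 rose and 6 fell, and 2 rose without isolate 4. Wnt10b, a secreted Wnt ligand that blocks adipogenesis, stood at 8.20 ± 2.68 CPM in GFP_TGFB and 0.41 ± 0.26 CPM in GFP cultures (log2 fold change 4.35, edgeR adjusted p = 3.10e-09). Foxc2 had 0.90, while Zfp521 had -1.65, Sox9 -1.53 and Foxo1 -0.71. Of 10 tested genes of mature fat cells, 1 rose and 7 fell (3 without isolate 3), and a further 11 listed genes had too few counts to test. The one that rose was Adipor1, the adiponectin receptor (0.42), and among those that fell were the hormone-sensitive lipase Lipe (-0.80), the triglyceride-forming enzyme Dgat2 (-0.65) and Lpin1 (-0.40).

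Of 16 tested genes of lipoprotein lipase control and lipoprotein handling, 4 rose and 7 fell. The lipoprotein receptors Lrp8 (1.69) and Scarb1 (0.57) rose, while the lysosomal lipase Lipa (-0.69), Angptl2 (-0.80) and the phospholipid transfer protein Pltp (-1.26) fell. Of 15 tested genes of fatty acid uptake and activation, 5 rose and 4 fell. Acsbg1, an acyl-CoA synthetase, stood at 32.8 ± 2.37 CPM in GFP_TGFB and 2.37 ± 1.78 CPM in GFP cultures (log2 fold change 3.75, edgeR adjusted p = 1.83e-06), while Slc27a3, of the fatty acid transport protein family, stood at 4.02 ± 0.30 CPM in GFP_TGFB and 30.6 ± 1.64 CPM in GFP cultures (-2.92, adjusted p = 6.32e-13). Slc27a1 (0.67) and Got2 (0.56) rose, and Acsl1 (-0.80) and Cav1 (-2.49) fell.

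Of 21 tested genes of lipid droplets and lipolysis, 5 rose and 8 fell. G0s2, an inhibitor of the triglyceride lipase encoded by Pnpla2, stood at 6.41 ± 1.36 CPM in GFP_TGFB and 93.5 ± 38.5 CPM in GFP cultures (log2 fold change -3.87, edgeR adjusted p = 5.13e-08), and Pnpla2 itself rose (0.72). Lpin3 (1.13) and Gpat3 (1.26), enzymes of glycerolipid synthesis, also rose, while Bscl2, which encodes the droplet assembly protein seipin (-0.72), and Hsd17b11 (-0.72) fell. Of 15 tested genes of fatty acid synthesis, 7 rose and 4 fell. Acaca (0.67), Acly (0.51) and Fasn (0.48), which lead from citrate to palmitate, rose, while Elovl5 (-0.74), Acss2 (-0.64) and Acacb (-1.14) fell. Of 30 tested genes of fatty acid oxidation, 5 rose and 17 fell. The count that rose was 2 without isolate 4 or with every gene that had a count, and 3 with library totals or without isolate 1 or 3. Cpt1a, which admits fatty acids to mitochondria, stood at 68.4 ± 12.4 CPM in GFP_TGFB and 144.6 ± 5.00 CPM in GFP cultures (-1.08, edgeR adjusted p = 2.23e-08). Acot1 (-3.25) and Acadl (-0.50) fell, while Acadvl (0.36), Eci1 (0.36) and Etfdh (0.18) rose.

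**Figure D5:**
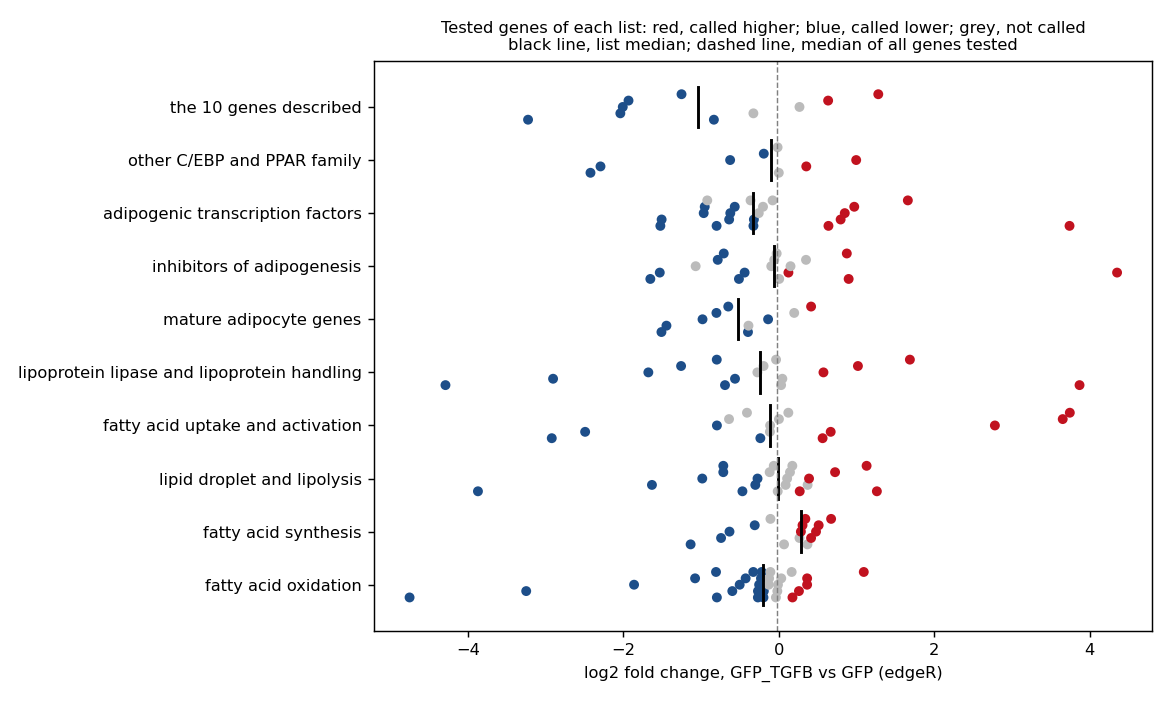
Log2 fold change with TGFB in cultures with the control virus (GFP_TGFB against GFP, edgeR) for each tested gene of the 10 described and of 9 pathway lists. Red points were called higher, blue lower and grey not called, black lines are list medians and the dashed line is the median of all genes (-0.02). List medians lie between -0.52 for mature fat cell genes and 0.28 for fatty acid synthesis, against -1.04 for the 10 genes.

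In Cre_TGFB against Cre cultures 56.5% of all tested genes were called in either direction. Of the C/EBP and PPAR relatives 2 rose, but none did without isolate 1, 3 or 4, Cre library 1 or Cre_TGFB library 3, and 1 did without Cre library 2, without Cre_TGFB library 4 or with every gene that had a count. A further 4 of the relatives fell, 6 rose and 12 fell of the promoting factors, 4 rose and 5 fell of the inhibitors and 1 rose and 8 fell of the mature fat cell genes. Of the lipoprotein genes 4 rose and 9 fell, of the uptake genes 5 rose and 4 fell, of the droplet genes 5 rose (8 with the isolate as a block) and 9 fell, of the synthesis genes 7 rose and 5 fell, and of the oxidation genes 4 rose (2 without isolate 4) and 16 fell. Every list gene named above was called in the same direction in Cre_TGFB against Cre cultures. No tested gene of the 9 lists was called by edgeR for Cre with or without TGFB, for the Hyal2 virus, or in the interaction. With the isolate as a block 1 was called, for Cre without TGFB, against 0.269% of all genes. That was Apod, which encodes the lipid carrier apolipoprotein D and was singled out after its values were seen. It stood at 4.50, 5.11, 17.7 and 18.02 CPM in Cre cultures and at 2.95, 2.34, 6.73 and 6.60 CPM in GFP cultures, higher with Cre in every isolate. The log2 fold change of Apod was 1.28 (edgeR adjusted p = 0.719, SE 0.42), and 1.19 under the block (adjusted p = 0.0495). That value lay just under the threshold, and Apod was not followed in the leave-out fits.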

How the data were processed

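Bulk RNA libraries were made with NEBNext Ultra II from Trizol RNA, per the labels' protocols. The deposited table holds raw counts per Ensembl gene, made by the authors with HTSeq 0.10.0 on GRCm39 (mm39), per the submitters' processing notes, which also name FastQC 0.10.1. The sources used here do not give the aligner, the annotation or the strand setting, so overlapping and antisense genes may share reads. Symbols came from GENCODE M21 and matched 52081 of 55414 IDs. All 20 columns matched 1 sample each.

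Counts were scaled by TMM. Of 31062 genes with a count, 15624 passed edgeR's filter (10 counts, scaled to library size, in 4 libraries). All 20 libraries entered 1 quasi-likelihood fit with a mean per group (edgeR 4.0.16, R 4.3.3, checked on simulated data). SE is the log2 fold change divided by the root of F. Within-isolate differences use log2 CPM with a prior count of 2. Alternatives were DESeq2 1.42.0, limma 3.58.1 voom, other scalings and filters, the comparison's groups alone, the replicate number as a block, and leaving out each isolate or library. Library names share a prefix per replicate number, and the samples were paired by number on that ground. Deviations from group means correlated at 0.114 to 0.712 over 40 same-number pairs from different groups. Pairs of other numbers from different groups ran from -0.606 to 0.442. These ranges overlap, so the correlations alone do not establish the pairing. No replicates were identical, and each pair differed by more than counting noise. P-values of the main fit set a change against the spread between 4 isolates within groups, pooled over 20 libraries treated as independent. P-values under the block set it against the spread left after differences between isolates are removed.

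The genes and lists were chosen with earlier results of these data known. Named genes are the 10 in every comparison, Hyal2 as a check of the labels, and, per list, up to 3 called genes in each direction with the smallest p in GFP_TGFB against GFP if their mean reached 5 CPM in 1 of those groups. Some genes that this rule names are not reported here.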

Additional observations from a re-analysis of the deposited data

Results flagged for a closer look

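In 50 sets of 4 libraries (10 genes in 5 groups), 3 held a library that stood apart from its fellows, and chance gives about 1 in 20. Fabp4 in Cre_TGFB isolate 3 stood at 0.41 CPM, with the other 3 libraries at 0.78 to 0.82 CPM. Plin2 in Cre_TGFB isolate 3 stood at 232 CPM, with the others at 263 to 264 CPM. That library also had the highest share of mitochondrial counts, 1.602% against 0.538% to 1.199% in the other 19 libraries. Each Cre_TGFB library had a higher share than each Cre library, while GFP_TGFB (0.789% to 1.080%) and GFP libraries (0.625% to 1.199%) overlapped. The part of this in the values was not tested. Cd36 in GFP isolate 1 stood at 5.53 CPM, with the others at 3.58 to 3.89 CPM. Male and female isolates moved in opposite directions in 2 of 50 pairs of gene and comparison. How often chance gives such a pair was not counted, and neither difference was tested. For Lpl in Cre against GFP cultures, the male minus female difference of the log2 changes was -0.40, with both males lower and both females higher with Cre. For Fabp4 in Hyal2 against GFP cultures it was -0.22, with both males lower and both females higher with the Hyal2 virus.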

How the results depend on the processing

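The number of the 10 genes called with TGFB was 7 to 9 in every setting and leave-out fit, in both TGFB comparisons, and 0 for Cre, the Hyal2 virus and the interaction. Over all genes, calls in GFP_TGFB against GFP ran from 6993 of 15661 tested (without isolate 3) to 9667 of 15624 (block). They were 8149 of 31062 with every gene that had a count. In Cre_TGFB against Cre they ran from 7077 of 15661 to 9942 of 15624 in the same 2 fits. For Cre against GFP, DESeq2 called 37 and the block 42 of 15624 genes. The replicate block raised it to 9 for GFP_TGFB against GFP and to 9 for Cre_TGFB against Cre, gained Pparg in both and Angptl4 in the second, and changed no other call of the 10. Angptl4 in GFP_TGFB against GFP lost its call with library totals alone (0.53, adjusted p = 0.0929), with every gene that had a count (0.61, adjusted p = 0.137) and with those 2 groups alone (0.64, adjusted p = 0.0635). In Cre_TGFB against Cre it gained it with DESeq2 (0.56, adjusted p = 0.0478) and with those groups alone (0.55, adjusted p = 0.0246). Library totals moved the median of all genes in GFP_TGFB against GFP to -0.13, against -0.02 with TMM. Under settings other than leave-outs, no log2 fold change that was followed changed sign. All 10 genes were followed in Cre against GFP and in both TGFB comparisons. Of the 10, only Cebpd, Cd36 and Lpl were followed in Hyal2 against GFP. Only Angptl4, Fabp5, Cd36 and Lpl were followed in Cre_TGFB against GFP_TGFB, and only Fabp5, Cd36 and Lpl in the interaction.

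Leaving out an isolate or a library turned the sign of some uncalled differences among the genes followed in each comparison. Signs of genes not followed, such as Cebpa and Fabp4 in Hyal2 against GFP, were not examined. In Cre against GFP, Angptl4 ran from -0.0189 to 0.37, Cebpa from -0.35 to 0.19, Fabp4 from -0.11 to 0.28, Lpl from -0.37 to 0.10 and Pparg from -0.39 to 0.10. In Hyal2 against GFP, Cebpd ran from -0.0300 to 0.24 and Lpl from -0.51 to 0.0464. In Cre_TGFB against GFP_TGFB, Angptl4 ran from -0.0897 to 0.20, Cd36 from -0.24 to 0.22 and Lpl from -0.0832 to 0.18, and Lpl in the interaction ran from -0.0574 to 0.41. Hyal2 in Cre against GFP lost its call without isolate 1, 2 or 4, GFP library 1 or 2, or Cre library 1, 2 or 4 (-2.08 to -1.86, adjusted p = 0.0547 to 0.678), with every gene that had a count and with limma-voom (adjusted p = 0.0851 and 0.0556), and in 2 of 12 leave-out fits with TGFB.

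Among list genes, leave-out fits lost the calls of Nr1h2 (9 of 12), Cebpg (7), Etfdh (2), Foxc2 (1) and Lpin1 (1) in GFP_TGFB against GFP, and of Scarb1 (8 of 12), Ddit3 (7), Cebpg (5) and Eci1 (1) in Cre_TGFB against Cre. Etfdh also lost it with library totals alone (0.07, adjusted p = 0.282) and with every gene that had a count (0.15, adjusted p = 0.122). The causes were not tested. Genes at about 1 CPM or less, such as Fabp4 with TGFB, rest on few counts.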
